A study of Mus musculus with 12 samples.

Results

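Cells release ATP and NAD into their surroundings, and a small set of surface proteins reads and removes these molecules. The 9 genes described here were chosen by name: the receptors P2rx7, P2rx4 and P2ry10, the NAD-consuming ectoenzymes Cd38 and Bst1, the ATP-to-adenosine ectoenzymes Entpd1 (CD39) and Nt5e (CD73), the adenosine receptor Adora2a, and adenosine deaminase, Ada. They are 9 of the 41128 genes measured by RNA sequencing in 12 libraries of splenic lymphocytes from C57BL/6J mice aged 6 to 8 weeks. There were 4 groups of 3 libraries, namely CD43- resting B cells from females and from males (numbered 1 to 3 in each sex) and naive CD4+ CD62L+ T cells from females and from males (numbered 4 to 6). Each replicate is a pool of mice, the labels name no transgene or treatment, and p-values measure the spread between pools. According to the labels the T cells were depleted of CD25+ cells on magnetic columns and then sorted as CD4+, CD62Lhi, CD44lo and CD25-. CD43 is lost from most resting B cells of the spleen and is retained on B1 and plasma cells.

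Extracellular ATP opens the P2X channels. P2RX7 responds to high ATP concentrations and P2RX4 to lower ones. In mouse T cells P2RX7 can also be switched on by ADP-ribosyltransferases of the ART2 family, which use extracellular NAD. CD39 strips phosphates from ATP and ADP to give AMP, CD73 turns AMP into adenosine, the receptor encoded by Adora2a senses adenosine and dampens lymphocyte activation, and ADA turns adenosine into inosine. CD38 and BST1 (CD157) hydrolyse NAD and make cyclic ADP-ribose. P2RY10 is named after the nucleotide receptors and is known as a receptor for lysophosphatidylserine.

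The genes lie on 6 chromosomes, and 4 of them form 2 pairs of neighbours on chromosome 5 (coordinates from GENCODE M21 on GRCm38). P2rx7 (122643911 to 122691432, plus strand) ends 16111 bp before P2rx4 (122707544 to 122729738, plus strand), with 1 other gene between them. Bst1 (43818885 to 43843986, plus strand) ends 24566 bp before Cd38 (43868553 to 43912375, plus strand), with 0 genes between them. The other genes are Entpd1 (chromosome 19, 40612366 to 40741602, plus strand), Nt5e (chromosome 9, 88327197 to 88372092, plus strand), Adora2a (chromosome 10, 75316877 to 75334784, plus strand), Ada (chromosome 2, 163726584 to 163750239, minus strand) and P2ry10 (chromosome X, 107088492 to 107104974, plus strand).

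RefSeq starts were found for 7 of the 9 genes, 10 starts in all, in a table built on GRCm38.p6. The 250 bases before a start are shown for P2rx7 and P2rx4, which are neighbours with opposite cell type patterns (values below), and for Entpd1, whose T cell values spread most. P2rx7 and Entpd1 each have 2 starts, and a gene-level value does not show which start was used. The upstream P2rx7 window is cut to 234 bases, where an annotated exon begins, and the other 4 windows hold no annotated exon. Capitals mark matches, on either strand, to 4 short motifs chosen after the values were seen: CCCNNGGG (the core bound by the B lineage factor EBF1), CTTTGA (the core bound by the T lineage factors TCF7 and LEF1), GGGCGG (the GC box) and AGGAAG (an ETS core).
P2rx7, upstream start (chr5:122643677-122643910, plus strand): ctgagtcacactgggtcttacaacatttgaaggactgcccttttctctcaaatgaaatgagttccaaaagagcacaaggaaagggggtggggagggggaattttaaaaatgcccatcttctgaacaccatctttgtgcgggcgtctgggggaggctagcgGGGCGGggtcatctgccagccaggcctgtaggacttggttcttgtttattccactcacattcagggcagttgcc
P2rx7, downstream start (chr5:122650133-122650382, plus strand): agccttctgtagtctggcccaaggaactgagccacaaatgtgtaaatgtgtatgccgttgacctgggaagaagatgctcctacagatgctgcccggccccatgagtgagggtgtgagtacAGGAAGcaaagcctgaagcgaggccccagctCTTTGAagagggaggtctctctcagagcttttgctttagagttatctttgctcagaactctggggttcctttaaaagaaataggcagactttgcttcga
P2rx4 (chr5:122707294-122707543, plus strand): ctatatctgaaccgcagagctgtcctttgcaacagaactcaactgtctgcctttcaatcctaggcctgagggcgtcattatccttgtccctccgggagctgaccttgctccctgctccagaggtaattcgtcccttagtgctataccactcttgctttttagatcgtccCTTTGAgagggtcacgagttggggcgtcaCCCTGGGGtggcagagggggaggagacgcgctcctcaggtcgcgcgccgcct
Entpd1, upstream start (chr19:40612116-40612365, plus strand): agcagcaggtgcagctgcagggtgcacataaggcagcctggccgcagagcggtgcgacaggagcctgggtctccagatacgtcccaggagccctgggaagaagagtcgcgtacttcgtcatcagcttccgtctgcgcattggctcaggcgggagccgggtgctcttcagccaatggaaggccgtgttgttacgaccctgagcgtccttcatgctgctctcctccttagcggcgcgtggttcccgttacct
Entpd1, downstream start (chr19:40659520-40659769, plus strand): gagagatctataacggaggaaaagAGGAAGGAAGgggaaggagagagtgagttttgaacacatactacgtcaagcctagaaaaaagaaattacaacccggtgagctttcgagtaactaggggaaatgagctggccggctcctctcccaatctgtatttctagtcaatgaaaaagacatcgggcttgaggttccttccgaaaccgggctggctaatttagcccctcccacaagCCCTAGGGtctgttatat

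The upstream P2rx7 window held 1 GC box in the bases shown and 2 in all 250. The downstream P2rx7 window held 1 CTTTGA and 1 AGGAAG. The P2rx4 window held 1 CCCNNGGG and 1 CTTTGA. The upstream Entpd1 window held 0 matches to the 4 motifs and the downstream window held 1 CCCNNGGG and 2 overlapping AGGAAG. Among the 250-base windows of all 32851 RefSeq starts, 11.8% held CCCNNGGG, 13.8% CTTTGA, 32.7% GGGCGG and 29.5% AGGAAG. A match describes the letters of a window and was not tested for binding.

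Values are named adjusted TPM in the deposited table. TPM is by definition a length-corrected abundance, the adjustment made to it is not given in the sources used here, and values come with a lower and an upper bound per library. The totals ran from 561020 to 1453940, the sequencing depth is unknown, and fewer cells of a type cannot be told apart from less RNA per cell in such bulk samples. Sums over marker genes are of deposited values and were not rescaled to a common total. Of genes that mark B cells, Pax5, Ms4a1, Cd79a and Cd79b summed to 2220.4 to 2643 in B cells and to 0.896 to 4.91 in T cells. Of genes that mark T cells, Tcf7, Lck, Cd4, Cd3d and Cd3e summed to 1017 to 1194 in T cells and to 9.76 to 14.1 in B cells. Both T cell libraries numbered 6, 1 from each sex, stood apart from the other 4 T cell libraries. Their sum over 5 genes of regulatory and activated T cells (Foxp3, Il2ra, Ikzf2, Ctla4 and Tnfrsf18) was 58.2 and 58.3, against 25.8 to 28.3 in the other 4, and both were higher for 5 of 5 of these genes. Il2ra, which encodes CD25, was at 4.999 and 4.11 in them and at most 0.340 in the other 4. Their sums over the 4 B cell markers were 2.43 and 4.91, against 0.896 to 1.82. Monocyte and macrophage genes (Lyz2, Cd68, Csf1r, Adgre1 and Cd14) summed to 2.44 and 5.37 in them, against 1.08 to 1.57 in the other 4 and 11.96 to 16.04 in B cells. Sums were also higher in B than in T cells for plasma cell genes (Sdc1, Prdm1 and Jchain, 56.7 to 138 against 2.01 to 3.00). The same held for dendritic cell genes (Itgax, Flt3 and Zbtb46, 3.29 to 8.02 against 1.83 to 3.28). It also held for platelet genes (Pf4 and Itga2b, 1.41 to 5.94 against 0.308 to 0.547) and natural killer cell genes (0.214 to 0.788 against 0.00794 to 0.0552). Of these genes, Prdm1 and Zbtb46 went the other way (limma log2 difference -0.67 and -0.41). Erythroid sums (0.558 to 196 in B cells, 1.94 to 42.9 in T cells) overlapped, as did neutrophil sums. Genes of marginal zone and B1 B cells (Cr2, Cd1d1, Cd9, S1pr3, Cd5 and Spn) summed lower in B cells (231 to 348) than in T cells (360 to 440). This list was mixed. Cr2, S1pr3 and Cd1d1 were higher in B cells (limma log2 difference 7.36, 3.15 and 0.70). Cd5, Spn and Cd9 were higher in T cells (-6.53, -4.54 and -1.68). The sum therefore does not describe marginal zone or B1 B cells. The part that other cell types play in the B cell values of genes at low levels, such as Bst1, Entpd1, Alpl and Trpm2, was not tested. Male T cell library 6 also had the highest total (1453940) and the lowest share of protein-coding genes (38.5%, against 42.7% to 68.0% elsewhere). B against T differences of the 9 genes are therefore given with and without these 2 libraries.

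All 9 genes reached the minimum of 1 adjusted TPM in at least 3 libraries and were tested together with the other genes, 12520 in all. In limma, 8 of 9 differed between B and T cells at a Benjamini-Hochberg adjusted p under 0.05, against 73% of all genes tested. Cd38, Bst1, Entpd1, P2rx4 and P2ry10 were higher in B cells, as were 31.4% of all genes. P2rx7, Nt5e and Adora2a were higher in T cells, as were 41.6% of all genes. Ada was not called. For 8 of 9 genes the ranges of the B and T cell libraries were separate, against 53.9% of all genes. P2rx7, Cd38, Bst1 and Entpd1 passed the minimum in 1 cell type only, so a difference between the cell types was built into their selection and their calls carry little information beyond the values. The median B minus T difference of log2(adjusted TPM + 1) was 0.96 over the 9 genes and -0.09 over all genes tested. Cd38, Bst1 and Entpd1, all higher in B cells, are among the genes selected in this way, so the median over the 9 is a description. The genes that passed the minimum in both cell types were at 0.96 (P2rx4), 1.08 (P2ry10), -2.82 (Nt5e), -0.56 (Adora2a) and -0.10 (Ada).

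**Figure D1:**
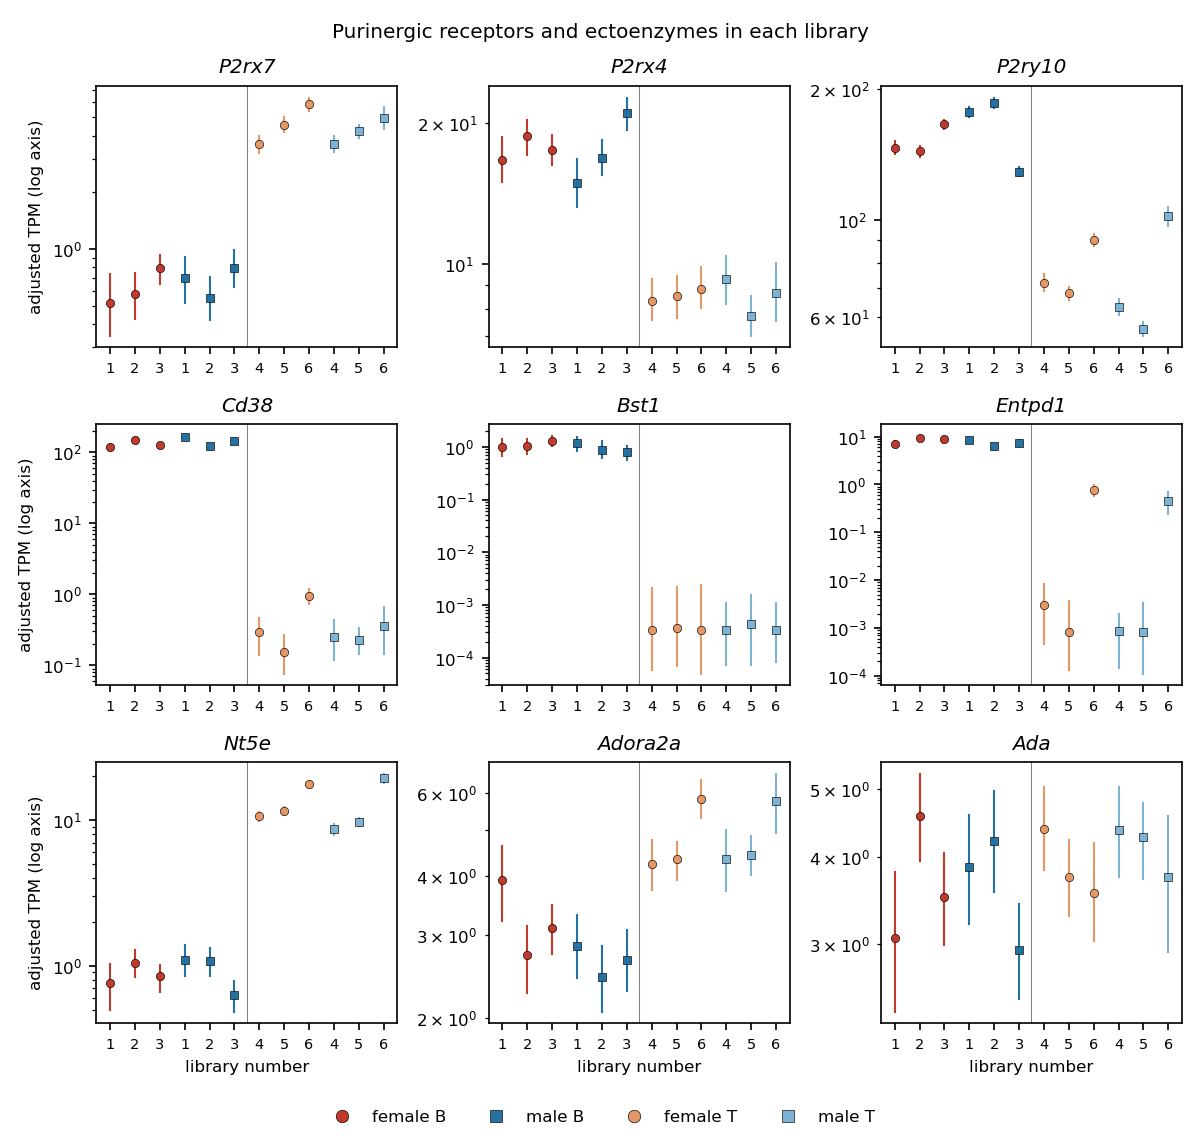
Adjusted TPM of each gene in each library, on log axes that differ between panels. Points are the deposited values, vertical lines the deposited lower and upper bounds, circles females and squares males, and the grey line separates the B cell (left) from the T cell libraries (right). B and T cell points do not overlap in 8 of 9 panels, Ada being the exception, and Entpd1 in T cells lies near 0.001 except in both libraries numbered 6.

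The genes of the 3 receptors for ATP and lysophosphatidylserine divided between the cell types. P2rx7 was at 0.516, 0.579 and 0.788 in female B cells, 0.704, 0.552 and 0.794 in male B cells, 3.62, 4.57 and 5.91 in female T cells, and 3.63, 4.22 and 4.99 in male T cells. Every T cell library lay above every B cell library, and the lowest T cell lower bound (3.25) lay above the highest B cell upper bound (0.991). The mean was 0.656 ± 0.123 in B cells against 4.49 ± 0.876 in T cells (SD, n = 6 each), 6.85-fold higher in T cells and 6.12-fold without the libraries numbered 6. On the log2(adjusted TPM + 1) scale, which understates the change of low genes, the B minus T difference was -1.72 (SE 0.10, limma adjusted p = 6.3e-09), and -1.60 without the libraries numbered 6. A microRNA gene, Mir8115, lies within P2rx7 on the same strand.

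P2rx4, the channel that responds to lower ATP concentrations, had the opposite pattern to its neighbour P2rx7. It was at 16.7, 18.8 and 17.6 in female B cells, 14.9, 16.9 and 21.02 in male B cells, 8.33, 8.54 and 8.82 in female T cells, and 9.27, 7.73 and 8.67 in male T cells. The groups did not overlap and the B cell mean was 2.06-fold that of T cells, with a log2 difference of 0.96 (SE 0.08, limma adjusted p = 1.4e-07), and 0.97 without the libraries numbered 6. Within a library, the log2 ratio of P2rx7 to P2rx4 (with 1 added to each) was -3.49 ± 0.16 in B cells against -0.81 ± 0.23 in T cells (SD, n = 6 each), with no overlap. In the 4 T cell libraries numbered 4 and 5 it was -0.92 ± 0.19 (SD, n = 4). P2rx4 thus exceeded P2rx7 in both cell types, and by less in T cells. Both libraries numbered 6 lay within the range of the other T cell libraries for P2rx4.

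P2ry10 was the most abundant of the 9 genes in T cells and had the highest mean in B cells. Its values were 147, 144 and 166 in female B cells, 177, 185 and 129 in male B cells, 72.0, 68.2 and 90.1 in female T cells, and 63.3, 56.5 and 102 in male T cells. No T cell library reached the lowest B cell library. The B cell mean was 2.10-fold higher, 2.43-fold without the libraries numbered 6, with a log2 difference of 1.08 (SE 0.14, limma adjusted p = 1.8e-05), and 1.26 without them. Its transcripts share a stretch of 443 bases at 96.6% identity with the neighbouring paralog P2ry10b, so part of the value may be misassigned between them. P2ry10b was lower, at 33.7 to 42.8 in B cells and 19.2 to 23.9 in T cells, and was also called higher in B cells (log2 difference 0.76, SE 0.07, limma adjusted p = 4.7e-07).

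Both NAD ectoenzyme genes were higher in B cells, at very different levels. Cd38 was at 120.4, 152 and 127 in female B cells, 166, 121 and 144 in male B cells, 0.291, 0.155 and 0.943 in female T cells, and 0.250, 0.228 and 0.355 in male T cells. The lowest B cell lower bound was 116 and the highest T cell upper bound 1.19. The ratio of means was 374, or 599.6 without the libraries numbered 6, and the log2 difference was 6.68 (SE 0.12, limma adjusted p = 3.6e-14), or 6.81 without them. In T cells Cd38 amounted to 0.112% to 0.681% of its B cell mean, and the 4 B cell markers to at most 0.322% of theirs. The part that traces of B cells play in the T cell values of Cd38 was not tested. Cd38 overlaps Gm16014 on the same strand and Gm16015 on the other, and both stayed under 5.64 in all libraries.

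Bst1 was at 0.998, 1.03 and 1.32 in female B cells, 1.18, 0.890 and 0.784 in male B cells, and at most 0.000425 in the T cell libraries. The highest upper bound in T cells was 0.00240 and the lowest lower bound in B cells 0.561. No ratio is given, since such low T cell values have little precision. The log2(adjusted TPM + 1) difference was 1.02 (SE 0.07, limma adjusted p = 2.2e-08), with or without the libraries numbered 6. Bst1 overlaps Fbxl5 on the opposite strand, which was at 63.9 to 75.4 in B cells and 49.4 to 52.5 in T cells. The libraries were strand-specific according to the labels, and whether strand was used in quantification is not given in the sources used here. The part of reads from Fbxl5 in the Bst1 values was not tested. Cd38 exceeded Bst1 in every B cell library, by a log2 ratio of 6.10 ± 0.22 (SD, n = 6) with 1 added to each.

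The genes of the ATP-to-adenosine enzymes were split between the cell types, with Entpd1 RNA higher in B cells and Nt5e RNA higher in T cells. Entpd1 was at 7.14, 9.35 and 8.90 in female B cells and 8.46, 6.38 and 7.54 in male B cells. In T cells it was at 0.00304, 0.000807 and 0.779 in females and at 0.000847, 0.000814 and 0.444 in males. The 2 higher T cell values are the libraries numbered 6, whose lower bounds (0.575 and 0.240) lay above the upper bounds of the other 4 (at most 0.00846). The log2 difference between B and T cells was 2.93 (SE 0.15, limma adjusted p = 1.8e-09), and 3.15 without the libraries numbered 6. A ratio of means rests on these libraries and is not given. In the libraries numbered 6 Entpd1 amounted to 9.79% and 5.57% of its B cell mean, and the B cell markers to at most 0.322% of theirs. Under the deposited scaling, the sums over regulatory T cell genes and over monocyte and macrophage genes were higher in the same 2 libraries. So was the sum over dendritic cell genes (2.83 and 3.28, against 1.83 to 2.51 in the other 4). The part of these cell types, or of traces of B cells, in the Entpd1 values was not tested. Entpd1 overlaps 2 processed pseudogenes and a sense intronic gene on its own strand.

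Nt5e was at 0.763, 1.04 and 0.846 in female B cells, 1.09, 1.08 and 0.628 in male B cells, 10.6, 11.5 and 17.7 in female T cells, and 8.64, 9.71 and 19.4 in male T cells. The T cell libraries were all higher, with the libraries numbered 6 the highest. The mean was 0.908 ± 0.191 in B cells against 12.9 ± 4.49 in T cells (SD, n = 6 each), a 14.2-fold difference that was 11.2-fold without the libraries numbered 6. The log2 difference was -2.82 (SE 0.18, limma adjusted p = 1.2e-08), and -2.54 without them. The log2 ratio of Nt5e to Entpd1 within a library changed sign between the cell types. With 1 added to each value, it was -2.23 ± 0.22 in B cells against 3.51 ± 0.20 in T cells (SD, n = 6 each), or 3.47 ± 0.16 (SD, n = 4) without the libraries numbered 6.

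**Figure D2:**
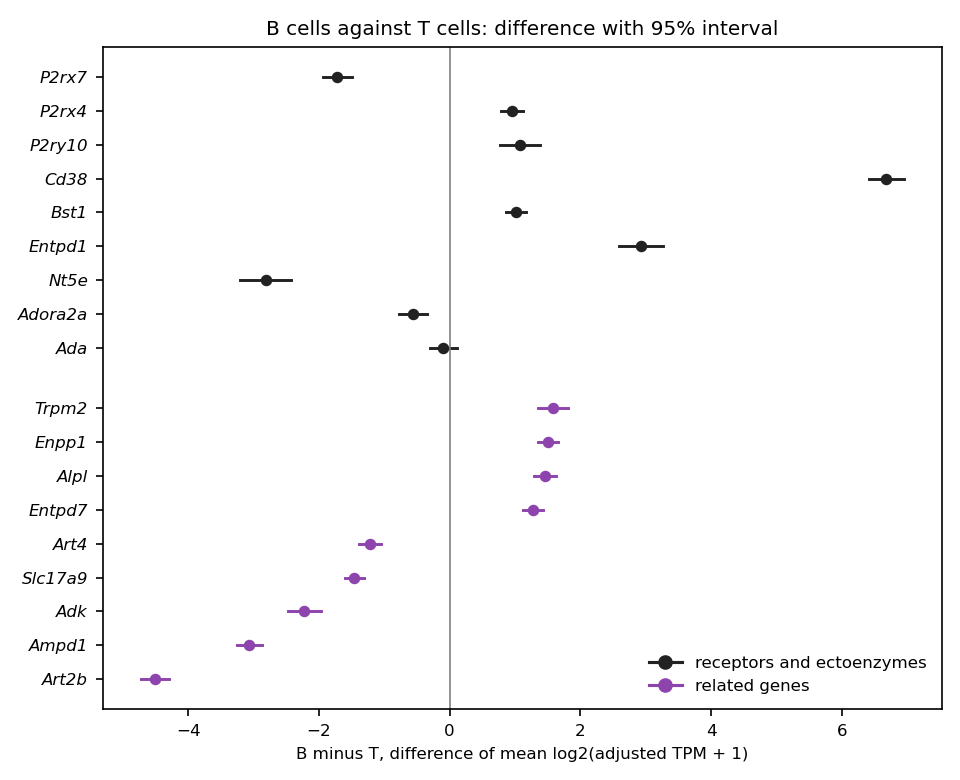
Difference between B and T cells in mean log2(adjusted TPM + 1), with limma's 95% interval, for the 9 receptors and ectoenzymes (black) and the 9 related genes past the threshold with an absolute difference of at least 1 (purple). Positive values are higher in B cells. Cd38 lies farthest to the right at 6.68, Art2b farthest to the left at -4.51, and the interval of Ada crosses 0. The Adora2a difference is past the threshold under the deposited scaling and not when libraries are rescaled to a common total, where Ada changes sign.

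The adenosine receptor gene Adora2a differed modestly between the cell types, and Ada was not called. Adora2a was at 3.93, 2.71 and 3.10 in female B cells, 2.84, 2.44 and 2.65 in male B cells, 4.25, 4.34 and 5.84 in female T cells, and 4.36, 4.44 and 5.78 in male T cells. The libraries did not overlap, but the deposited bounds did, since the highest B cell upper bound was 4.64 and the lowest T cell lower bound 3.72. T cells were 1.64-fold higher, 1.48-fold without the libraries numbered 6, with a log2 difference of -0.56 (SE 0.10, limma adjusted p = 0.00018), and -0.45 without them. After each library was scaled to sum to 1000000 the difference was -0.27 and not past the threshold (limma adjusted p = 0.19).

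Ada was at 3.06, 4.56 and 3.50 in female B cells, 3.87, 4.20 and 2.95 in male B cells, 4.38, 3.73 and 3.55 in female T cells, and 4.36, 4.26 and 3.74 in male T cells. The groups overlapped, and the log2 difference was -0.10 (limma 95% interval -0.31 to 0.11, adjusted p = 0.35), and -0.15 without the libraries numbered 6 (limma adjusted p = 0.22). This interval leaves room for a modest difference in either direction. The log2 ratio of Ada to Adora2a with 1 added to each was 0.25 ± 0.33 in B cells against -0.21 ± 0.27 in T cells (SD, n = 6 each), with overlap. In the T cell libraries numbered 4 and 5 it was -0.05 ± 0.09 (SD, n = 4).

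Levels are set side by side across genes on the assumption that adjusted TPM keeps the length correction of TPM. In B cells P2ry10 and Cd38 overlapped at the top, followed by P2rx4, Entpd1, the overlapping pair of Ada and Adora2a, and finally Bst1, Nt5e and P2rx7, each of which overlapped its neighbour. In T cells P2ry10 stood alone at the top, followed by Nt5e and P2rx4, which overlapped, then Adora2a, P2rx7 and Ada, each overlapping its neighbour, then Cd38 and Entpd1, and last Bst1. The deposited bounds of Entpd1 and Bst1 overlapped in the T cell libraries numbered 4 and 5, so their order there is not settled. The B cell means of P2ry10 and Cd38 exceeded those of 97.1% and 96.6% of all tested genes, and the B cell mean of P2rx7 exceeded 5.18%. In T cells the mean of P2ry10 exceeded 92.7% of tested genes and that of Nt5e 54.8%.

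The T cell libraries numbered 6 were the highest T cell libraries for 6 of 9 genes (P2rx7, P2ry10, Cd38, Entpd1, Nt5e and Adora2a) and the lowest for 0 of 9, against 17% of all tested genes for which both lay above the other 4. Their mean over that of the other 4 was 1.83 for Nt5e, 1.48 for P2ry10, 1.36 for P2rx7, 1.34 for Adora2a and 2.81 for Cd38. P2rx4, Bst1 and Ada did not follow this pattern. After each library was scaled to sum to 1000000, the count was 2 of 9 genes (Entpd1 and Nt5e) and 4 of 5 regulatory T cell genes, against 1.18% of all tested genes. With median-ratio scaling it was 6 of 9 and 5 of 5, against 19.1%. CD25- sorting was used for these libraries as for the others, and the part that regulatory or activated T cells play in these values was not tested.

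**Figure D3:**
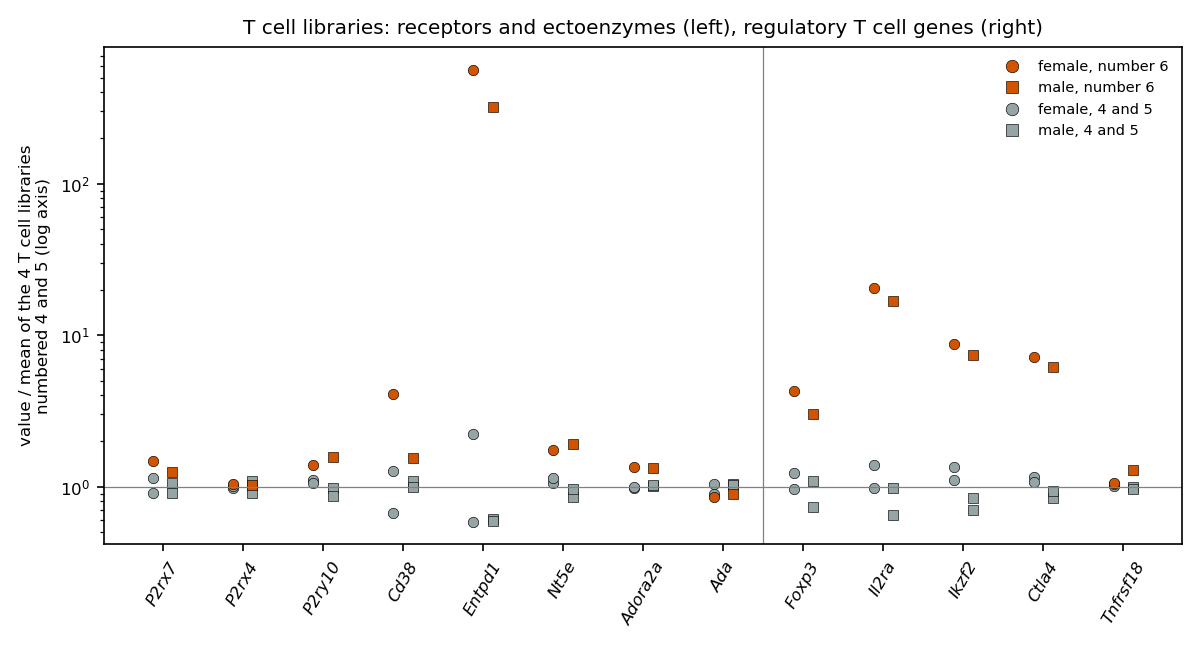
Value in each T cell library divided by the mean of the 4 T cell libraries numbered 4 and 5, on a log axis, for 8 of the 9 genes (left of the grey line; Bst1, near 0 in all T cell libraries, is left out) and 5 genes of regulatory and activated T cells (right). Orange points are the libraries numbered 6, grey points the other 4, circles females and squares males. The orange points lie above the grey ones for 6 of the 8 genes on the left and for 5 of 5 on the right, under the deposited scaling.

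The sexes were then set against each other in B cells and in T cells. In limma 0 of the 9 genes differed by sex in B cells, where 0.144% of all tested genes were called, and 0 in T cells, where 0.104% were called. The count of the 9 genes with an unadjusted p under 0.05 was 0 in both cell types, against 373 and 319 of all tested genes. The female minus male difference of log2(adjusted TPM + 1) ran from -0.10 (Cd38) to 0.21 (Adora2a) in B cells and from -0.07 (Ada) to 0.16 (Cd38) in T cells. The widest intervals were those of Nt5e, -0.58 to 0.52 in B cells and -0.43 to 0.67 in T cells, so only larger sex differences would have been seen for it. P2ry10, which is on chromosome X, was at 152 in females and 164 in males on average in B cells and at 76.7 and 74.0 in T cells. The female and male libraries overlapped for all 9 genes in both cell types. In the test of whether the sex difference itself differed between B and T cells, limma called 0 of the 9 genes, and 0% of all tested genes (295 had an unadjusted p under 0.05, 0 of them among the 9).

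**Figure D4:**
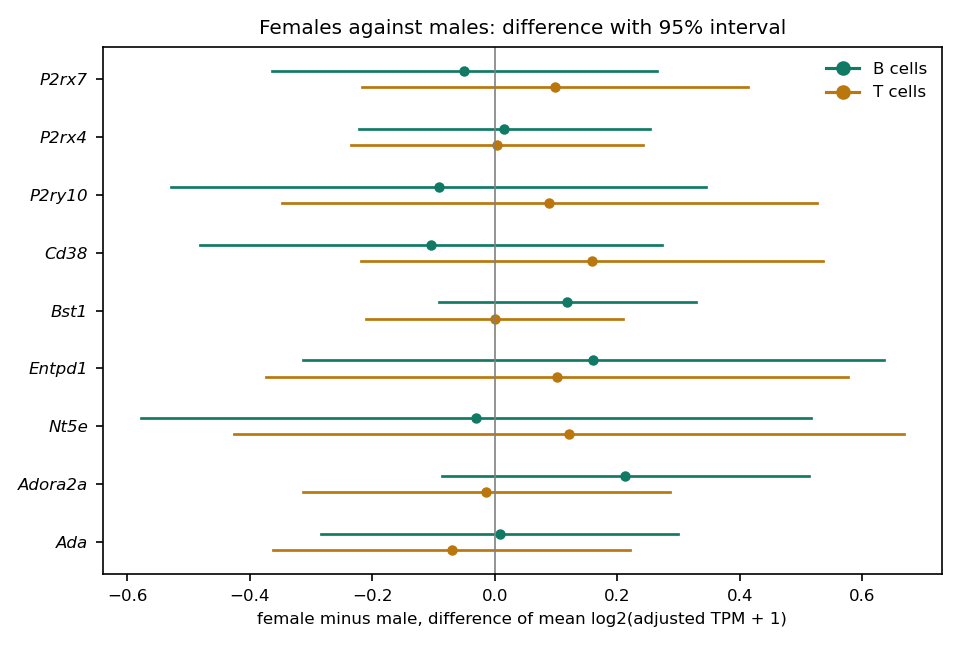
Difference between females and males in mean log2(adjusted TPM + 1), with limma's 95% interval, for each of the 9 genes in B cells (green) and T cells (brown). Positive values are higher in females. All 18 intervals cross 0.

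A wider list of genes of nucleotide, NAD and adenosine handling, including uptake and salvage, held 48 genes. Of these, 47 were matched in the table (P2ry10b under its older name A630033H20Rik) and 24 passed the minimum. Of these 24, limma called 9 higher in B cells, 12 higher in T cells and 3 neither way (Ampd2, Ampd3 and Dck), with a median log2 difference of -0.20. All 5 other P2X channels stayed below the minimum (at most 0.316 in any library), as did all 3 other adenosine receptors (at most 0.325) and 7 of 10 P2Y and lysophosphatidylserine receptors (at most 1.44). P2rx7 and P2rx4 were thus the P2X genes, and Adora2a the adenosine receptor gene, that passed the minimum.

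Related genes past the threshold with an absolute log2 difference of at least 1 numbered 9 of the 24, against 21.6% of all genes tested. Of these 9, Trpm2, Alpl, Art2b, Ampd1 and Art4 reached the minimum in 1 cell type only, so their difference was built into their selection and their values are a description. Without the libraries numbered 6, limma called 21 of the related genes, the same number as with them, and 73.8% of all genes tested. The 4 higher in B cells were Trpm2, a cation channel gated by ADP-ribose (log2 difference 1.58, SE 0.11), the nucleotide pyrophosphatase Enpp1 (1.51, SE 0.07), alkaline phosphatase Alpl (1.46, SE 0.08) and the nucleoside triphosphatase Entpd7 (1.28, SE 0.07). Enpp1 was at 10.3 to 13.6 in B cells and 3.02 to 4.01 in T cells. Alpl was at 1.48 to 2.19 in B cells, with a highest T cell value of 0.00359. Trpm2 was at 1.29 to 2.57 in B cells, with a highest T cell value of 0.0891.

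The 5 higher in T cells covered NAD-dependent ADP-ribosylation, ATP storage and purine salvage. Art2b, the ADP-ribosyltransferase that can act on P2RX7, was at 18.1 to 29.5 in T cells, with a highest B cell value of 0.0710 (log2 difference -4.51, SE 0.10). Its paralog Art2a was not matched in the table by name. Ampd1, an AMP deaminase, was at 5.76 to 9.84 in T cells, with a highest B cell value of 0.000273 (-3.07, SE 0.09). Adenosine kinase, Adk, which removes adenosine by phosphorylation, was at 27.2 to 36.0 in T cells and 4.15 to 7.84 in B cells (-2.22, SE 0.11). Slc17a9, the vesicular nucleotide transporter, was at 15.1 to 16.5 in T cells and 4.53 to 6.11 in B cells (-1.46, SE 0.07). The log2 difference of Art4, another ART family gene, was -1.22 (SE 0.08).

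For each of the 9 genes, the 2 tested genes of similar mean level (mean log2 value within 1) with the highest Pearson r over the 12 libraries were picked. These r mostly reflect the contrast between cell types that all libraries share, and are a description. Cd38 was most like Cybb and Ly86 (r = 1.000 for both), Bst1 like Alpl and Tspan15 (0.997 for both), Entpd1 like Mdfic (0.997) and Tyrobp (0.996), and P2rx4 like Pfkfb4 (0.990) and Mast4 (0.986). P2rx7 was most like Ict1os (0.994) and Fosl2 (0.993), Nt5e like Igf1r (0.992) and Rab11fip1 (0.991), P2ry10 like Ms4a4c (0.969) and Tpm4 (0.967), and Adora2a like Cdc14b (0.963) and Rasgrf2 (0.957). Ada, the gene that was not called between cell types, had the lowest r, 0.881 with S1pr2 and 0.830 with Zfp689.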

How the data were processed

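RNA of 12 libraries was depleted of ribosomal RNA, spiked with ERCC transcripts and made into strand-specific libraries, per the labels. Some label fields say genomic DNA, and the values were treated as RNA. The submitters' processing notes name Trim Galore, FastQC, STAR and mm10. The quantifier, the adjustment and the level of the bounds are not given in the sources used here. The deposited signal is named adjusted TPM, and no deposited value is 0. Groups and numbers were taken from the labels.

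Genes at 1 or above in at least 3 libraries (12520 of 41128) were fitted on log2(adjusted TPM + 1) by limma 3.58.1 (R 4.3.3), each group having its own coefficient, and with a mean-variance trend. Adjusted p-values are Benjamini-Hochberg over all genes fitted, with a threshold of 0.05. Tested on simulated data for these 12520 genes, the fit recovered 97.25% of 200 genes changed by a log2 of 1 between B and T cells, 93.00% and 93.15% between the sexes in B and in T cells, and 80.85% for the difference between the sex effects. False calls were 5.206% of the calls for B against T cells and 3.803% to 4.556% for the others. The simulated libraries were independent and 200 genes were changed, while 73% of genes were called between B and T cells here. These rates therefore may not hold for the real fits. Same-numbered female and male T cell libraries deviated together (r = 0.72, 0.55 and 0.52), so these numbers were treated as paired in an alternative fit of the sexes. For B against T cells, whose numbers differ, same-numbered libraries were averaged in another alternative, and otherwise enter as independent. Identifiers were matched to GENCODE M21 (97.9%), and transcripts were compared with blastn 2.17.0+ at a minimum identity of 95% and a minimum length of 75 bases. The alternatives changed the pseudocount, the minimum, the scaling, the trend or the libraries included.

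The genes, the lists and the tests were chosen with earlier results of these data known. All 9 genes are named. Related genes are named when past the threshold with an absolute log2 difference of at least 1. Of the marker genes, 1 was left out and its values are not used here.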

Additional observations from a re-analysis of the deposited data

Results flagged for a closer look

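In T cells, Cd38 was at 0.943 in female library 6, far above the other 5 T cell libraries, the nearest of which was at 0.355 (male library 6). Bst1 in T cells was highest in male library 5, at 0.000425, with the nearest library at 0.000363, both far below the minimum used for testing and with overlapping deposited bounds. These 2 came from 18 sets of 6 libraries examined by Dixon's criterion, which flags about 1 in 20 by chance. Under the deposited scaling, both libraries numbered 6 had the highest T cell values of Cd38. They also had the highest sums over regulatory T cell, B cell, monocyte and macrophage, and dendritic cell genes among T cell libraries. Male library 6 had the highest total (1453940), and these sums were not rescaled. After each library was scaled to sum to 1000000, Cd38 was at 1.18 in female and 0.244 in male library 6. It was then at 0.175 to 0.321 in the T cell libraries numbered 4 and 5. In deposited values, Cd38 was lowest in female library 5 (0.155), where the B cell markers summed to 1.82. Their lowest sum (0.896) was in male library 4, where Cd38 was at 0.250. The part of these cell types in the Cd38 values was not tested.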

How the results depend on the processing

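The 8 calls between B and T cells were 8 under most alternatives and 7 in 4 of them. After each library was scaled to sum to 1000000, Adora2a was not past the threshold (limma log2 difference -0.27, adjusted p = 0.19) and Ada changed sign to 0.21. Bst1 reached 1 in 3 libraries, so it was not tested without female B cell library 2 or 3 or male B cell library 1. That rescaling moved the median difference of all genes from -0.09 to 0.26 and the part of the calls that favoured B cells from 43.0% to 71.6%, while median-ratio scaling gave 0.01 and 52.6%. With no minimum on low values, limma called 33 of the 47 matched related genes and 59.8% of all 41128 genes. With the minimum it called 21 of 24 related genes and 73% of all genes tested. The female minus male difference of Cd38 in T cells ran from -0.065 to 0.311 when single libraries were left out (the lowest without female T cell library 6), and was -0.021 without both libraries numbered 6 (an alternative chosen after seeing the data, as were the scalings of the count for libraries numbered 6). With the label number as a replicate block, 0 of the 9 genes were called in either sex comparison or in the difference between them, as without it. With same-numbered libraries averaged as a replicate block (3 values per cell type, chosen after seeing the data), 8 of the 9 genes and 21 related genes were called between B and T cells. The share of all genes tested was 69.5%. The B cell numbers did not pair (r = -0.17, -0.04 and -0.34). Without a pseudocount, the log2 ratio of Nt5e to Entpd1 was -3.15 in B cells and 10.4 in T cells, that of Cd38 to Bst1 was 7.08 and 9.78, and that of P2rx7 to P2rx4 in B cells was -4.76. Depth is unknown, so the deposited bounds limit what can be said of values under 1.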
